A study of Mus musculus with 4 samples.

Results

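CXC chemokines are small secreted or membrane-bound proteins that guide the movement of leukocytes. The 9 genes described here, Cxcl1, Cxcl2, Cxcl5, Cxcl9, Cxcl10, Cxcl12, Cxcl13, Cxcl14 and Cxcl16, were taken by name from the 32285 genes of the deposited matrices. They were chosen by their UMI counts across cell classes and libraries of these same matrices, so their levels are given as a description with no test. Cxcl1, Cxcl2 and Cxcl5 act on Cxcr2 and draw neutrophils; Cxcl9 and Cxcl10 are induced by interferon and act on Cxcr3 of T and NK cells. Cxcl12 acts on Cxcr4 and keeps haematopoietic cells and vessel-forming cells in place, Cxcl13 acts on Cxcr5 of B cells, Cxcl14 is made by resting epithelium, and Cxcl16 is anchored in the membrane of phagocytes and binds Cxcr6. In skin wounds the neutrophil attractants are known as early signals of resident cells, whereas Cxcl12 and Cxcl14 are known as constitutive products of stroma and epithelium.

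The study measured single-cell transcriptomes of the mouse digit cut through its middle phalanx (P2), a level at which the digit heals by fibrosis. There were 4 libraries, 1 per group: unamputated digit and digit tissue at 12, 17 and 28 days post-amputation (dpa). All mice were wild-type FVB/NJ of 8 weeks, labelled as pooled male and female, and no vector or transgene is named for these samples. Live cells sorted by exclusion of propidium iodide after trypsin and collagenase digestion were run on the droplet platform of 10x Genomics, which counts unique molecular identifiers (UMIs), 1 for each captured transcript. Each group is 1 library, so no difference here has a replicate check, and every interval covers counting error only. UMIs of 1 gene clump in few cells, so these intervals are narrower than the variation between cells. The 3 comparisons with the unamputated library share that library as control.

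The libraries held 8813 to 15253 barcodes after amputation and 16045 in the unamputated digit. After filters, 34947 cells remained, with median depths of 11600, 9543.5, 8501 and 6657 UMIs in the unamputated, 12, 17 and 28 dpa libraries. Against the label of pooled sexes, transcripts of the Y chromosome without Xist marked 77.8%, 58.3% and 47.0% of cells in the unamputated, 17 and 28 dpa libraries and 0 cells at 12 dpa, where Xist without Y transcripts marked 54.2% of cells. Cells with Xist alone numbered 1 in the unamputated library and 0 at 17 and 28 dpa. Sex therefore cannot be told apart from time at 12 dpa, while the comparisons at 17 and 28 dpa do not use that library. Pairs of libraries shared 19 to 87 barcodes.

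Cells fell into 30 clusters, which were called X-like only where markers listed for this work stood out; 3 clusters stayed unnamed and are given by number. Cluster 0 (Acp5, Cd300c2, Clec5a) carried 17, 17, 16 and 15 of 19 mononuclear phagocyte markers in at least 25% of cells in the unamputated, 12, 17 and 28 dpa libraries. Clusters 7 (Chad, Omd, Comp) and 17 (C1qtnf3, Tnn, Crabp1) carried fibroblast markers together with tendon markers. Make-up within classes differed between libraries: of fibroblast-like cells, cluster 15 (Lsamp, Gdf10, C4b) held 59.8% in the unamputated library, and cluster 16 (Ccn3, Clec3b, Mfap5) held 54.1% at 12 dpa and 56.5% at 28 dpa. A level below is a CPM, the UMIs of the gene per 1000000 UMIs of all genes, summed over the cells of 1 class in 1 library. Where 4 values follow each other, they are in the order unamputated, 12, 17 and 28 dpa. Ratios are log2 of CPM plus 1 against the unamputated library, with 95% counting intervals in parentheses, and past 2-fold means a ratio of 2-fold or more for a gene with 5 CPM or more on at least one side.

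On GRCm38 with the GENCODE M21 annotation, 6 of the 9 genes lie on chromosome 5: Cxcl5 at chr5:90759360-90761624 (plus strand), Cxcl1 at chr5:90891241-90893115 (plus), Cxcl2 at chr5:90903871-90905938 (plus), Cxcl9 at chr5:92321347-92328079 (minus), Cxcl10 at chr5:92346638-92348889 (minus) and Cxcl13 at chr5:95956951-95961068 (plus). Cxcl12 lies at chr6:117168535-117181367 (plus), Cxcl14 at chr13:56288643-56296551 (minus) and Cxcl16 at chr11:70453983-70459984 (minus). All are annotated as protein coding. RefSeq promoter windows on GRCm38.p6, from 250 bases before to 50 bases after the gene start, matched 7 of the 9, all but Cxcl5 and Cxcl16. Those of Cxcl1 (chr5:90890995-90891294, plus), Cxcl2 (chr5:90903649-90903948, plus) and Cxcl10 (chr5:92348840-92349139, minus) are shown because the first 2 are neighbours whose transcripts were higher together in several classes after amputation, and the last belongs to the interferon-induced pair. Capitals mark a match on either strand to an NF-kappaB-type motif, GGGAATTTCC with any base at its position 5, or to an interferon-response-type motif, GAAAGTGAAA with any base at its positions 5 and 6.
Cxcl1: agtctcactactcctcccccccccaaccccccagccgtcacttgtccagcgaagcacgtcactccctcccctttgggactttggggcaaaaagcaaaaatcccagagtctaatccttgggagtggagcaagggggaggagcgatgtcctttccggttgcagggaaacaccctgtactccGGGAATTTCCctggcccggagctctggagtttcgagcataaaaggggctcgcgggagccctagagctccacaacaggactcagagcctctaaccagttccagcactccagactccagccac
Cxcl2: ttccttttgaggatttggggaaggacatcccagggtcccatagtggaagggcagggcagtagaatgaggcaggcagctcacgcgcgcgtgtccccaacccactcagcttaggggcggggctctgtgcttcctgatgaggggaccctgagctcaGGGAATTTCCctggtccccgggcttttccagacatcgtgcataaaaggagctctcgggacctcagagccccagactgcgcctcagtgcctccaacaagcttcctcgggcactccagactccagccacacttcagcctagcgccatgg
Cxcl10: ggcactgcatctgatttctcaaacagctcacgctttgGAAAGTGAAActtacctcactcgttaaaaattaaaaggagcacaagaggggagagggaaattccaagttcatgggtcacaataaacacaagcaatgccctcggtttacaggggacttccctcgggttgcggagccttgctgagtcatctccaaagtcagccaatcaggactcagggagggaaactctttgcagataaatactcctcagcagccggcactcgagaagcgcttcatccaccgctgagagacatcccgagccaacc
The NF-kappaB-type match began at position -71 in Cxcl1, counted from the RefSeq gene start as 0, and at -97 in Cxcl2, and none of the other 5 windows held this motif. Of all 32851 windows of 300 bases, 0.411% held it. The interferon-response-type motif stood in Cxcl10 at -213 and in Cxcl14 as GAAACAGAAA at -172, against 3.44% of all windows. The AP-1-type motif, TGAGTCA with any base at its position 4, stood in Cxcl9 and Cxcl10 and in 7.81% of windows. A match describes these letters and is not evidence of binding.

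The heat map of levels shows which classes held each gene. Cxcl1 was highest in mural-like cells in the unamputated, 12 and 28 dpa libraries and in fibroblast-like cells at 17 dpa. In every library Cxcl2 was highest in neutrophil-like cells, Cxcl12 in vascular endothelial-like cells, and Cxcl16 in cluster 0, followed by mononuclear phagocyte-like cells. Cxcl5 was highest in cluster 17 in the first 3 libraries and in cluster 7 at 28 dpa. Cxcl14 was highest in keratinocyte-like cells in the unamputated and 12 dpa libraries and in cluster 7 at 17 and 28 dpa. Cxcl9 and Cxcl13 had few UMIs in every class.

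**Figure D1:**
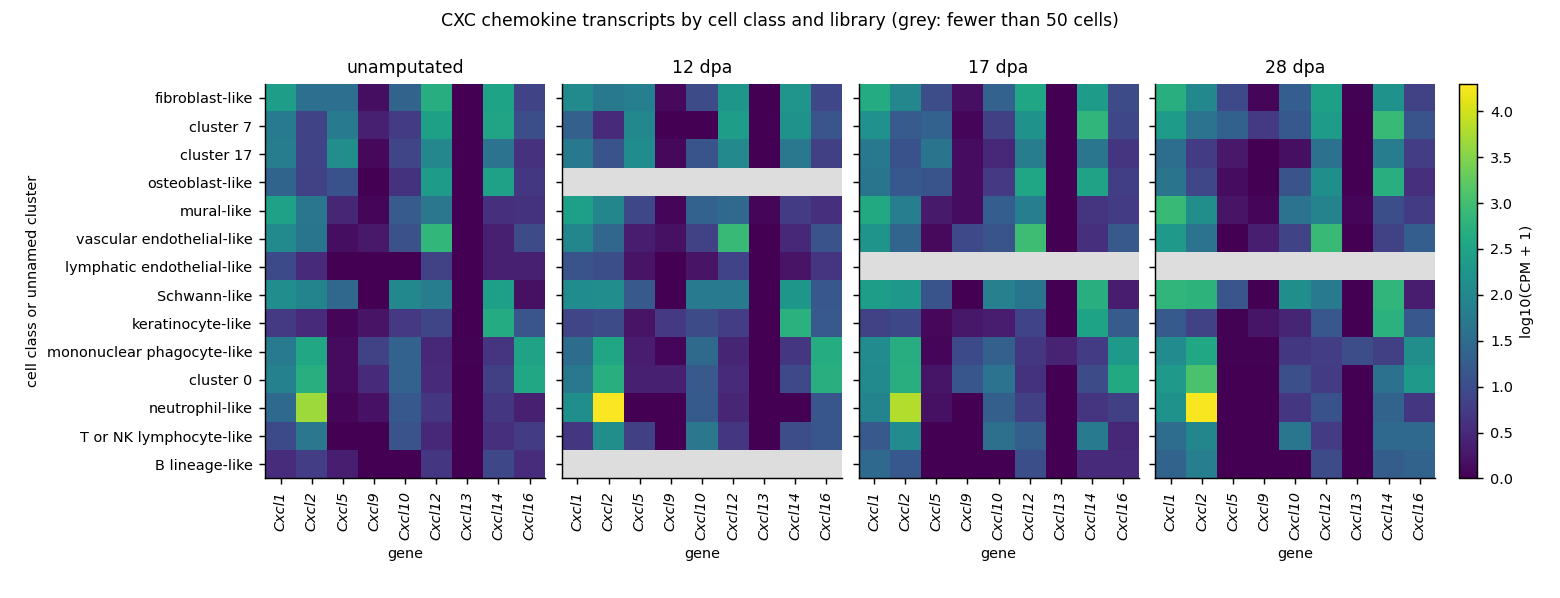
Level of each CXC chemokine as log10(CPM + 1) (colour) by cell class or unnamed cluster (rows) and gene (columns) in each library (panels), with classes of fewer than 50 cells in grey. The brightest field in every library is Cxcl2 in neutrophil-like cells, while Cxcl13 is dark in every class except mononuclear phagocyte-like cells at 17 and 28 dpa.

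Cxcl1, an attractant of neutrophils, was lower in fibroblast-like cells at 12 dpa and higher at 17 and 28 dpa than in the unamputated library. Its level there was 246 (238 to 255), 112 (104 to 120.2), 444 (436 to 453) and 507 (498 to 516) CPM. Log2 ratios were -1.13 (-1.25 to -1.02), 0.85 (0.79 to 0.90) and 1.04 (0.99 to 1.09) at 12, 17 and 28 dpa. The 4 levels had intervals that did not overlap. The ratio at 12 dpa stayed under 2-fold when cells were weighted equally (-0.93), when the median of all genes was set to 0 (-0.89), with looser cell filters (-0.90) or with each cell named alone (-0.81), and the ratio at 28 dpa did so with no doublets removed (0.96). 

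The clusters within the fibroblast-like class differed. In cluster 15 Cxcl1 was at 246, 128, 491 and 1121 CPM, so that its 28 dpa level was 2.18 above the unamputated level on the log2 scale. In cluster 16 it was at 172, 77.5, 126 and 173 CPM, with a log2 ratio of 0.01 (-0.11 to 0.13) at 28 dpa. Cluster 18 (Hcn4, Fgl2, Foxd1) had the highest Cxcl1 of these clusters in the unamputated, 17 and 28 dpa libraries, at 516, 942 and 1640.3 CPM; its 12 dpa value came from only 29 cells. The higher level at 28 dpa was thus seen in clusters 15 and 18 and not in cluster 16, which was the most numerous at that time.

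Mural-like cells, the contractile cells around vessels, held Cxcl1 at 292 (283 to 300.3), 267 (254 to 280.1), 415 (401 to 430.0) and 784 (764 to 804) CPM. The 28 dpa library stood above the other 3, with a log2 ratio of 1.42 (1.37 to 1.48), while the 12 and 17 dpa ratios were -0.13 and 0.51. All 3 mural-like clusters of more than 50 cells had their highest level at 28 dpa: cluster 13 (Pln, Myh11, smooth muscle genes) at 365, 460.0, 386 and 708, cluster 14 (Abcc9, Kcnj8, pericyte genes) at 185, 162, 214 and 329 and cluster 19 (Id4, Npy1r) at 475, 663, 757 and 1376 CPM. Their 28 dpa ratios were 0.95, 0.83 and 1.53, the last alone past 2-fold. Schwann-like cells, the glia of nerves, had Cxcl1 at 128 (117 to 141), 123 (107 to 140.2), 253 (221 to 288) and 669.9 (616 to 727) CPM and a log2 ratio of 2.37 (2.19 to 2.55) at 28 dpa, the largest 28 dpa ratio of this gene among classes with over 100 UMIs of it in both libraries, and it stayed past 2-fold under each alternative run, as did the mural-like ratio. The 12 fibroblast markers summed to 10066, 8269, 10408 and 10465 CPM in Schwann-like cells. The 9 Schwann markers summed to less, at 4427, 3477, 9082 and 7158 CPM. The part of the fibroblast markers in the chemokine levels of this class was not tested. Vascular endothelial-like cells had Cxcl1 at 107, 94.3, 166 and 207 CPM, and keratinocyte-like cells at 4.34, 7, 6.07 and 15.4 CPM.

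The cells that held most Cxcl1 changed with the library. Fibroblast-like cells held 25.1, 13.8, 57.2 and 55% of its UMIs and mural-like cells 32.6, 29.2, 18.6 and 26.4%. Cluster 17 held 27.7% at 12 dpa, where it was the largest connective tissue cluster, with a level of 53.3 CPM. These shares follow cell numbers as well as levels: fibroblast-like cells numbered 743, 436, 1841 and 2434. After every cell was thinned to 2000 UMIs, 21.9, 11, 27.6 and 28.6% of fibroblast-like cells had a Cxcl1 UMI, against 0.755, 1.46, 1.01 and 8.77% of T or NK lymphocyte-like cells, which are taken to lack it. In the T or NK lymphocyte-like cells Cxcl1 was itself past 2-fold higher at 28 dpa, with a log2 ratio of 1.88 (0.38 to 3.32) from 12 and 7 UMIs at 8.27 and 33.2 CPM in the unamputated and 28 dpa libraries, and the part of such background in the 28 dpa levels of other classes was not tested. Median depths were 18122, 13689, 11685 and 8710.5 UMIs and 4614, 2995, 3643 and 2465 UMIs, and the thinning left out 9, 7, 38 and 56 fibroblast-like and 12, 19, 14 and 20 T or NK lymphocyte-like cells. The unthinned shares in fibroblast-like cells were 45.2, 26.1, 47.3 and 45.7%. The 5% of fibroblast-like cells richest in Cxcl1 held 47.1, 70, 51.4 and 54.4% of its UMIs, so a small part of the cells carried much of the transcript in each library.

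**Figure D2:**
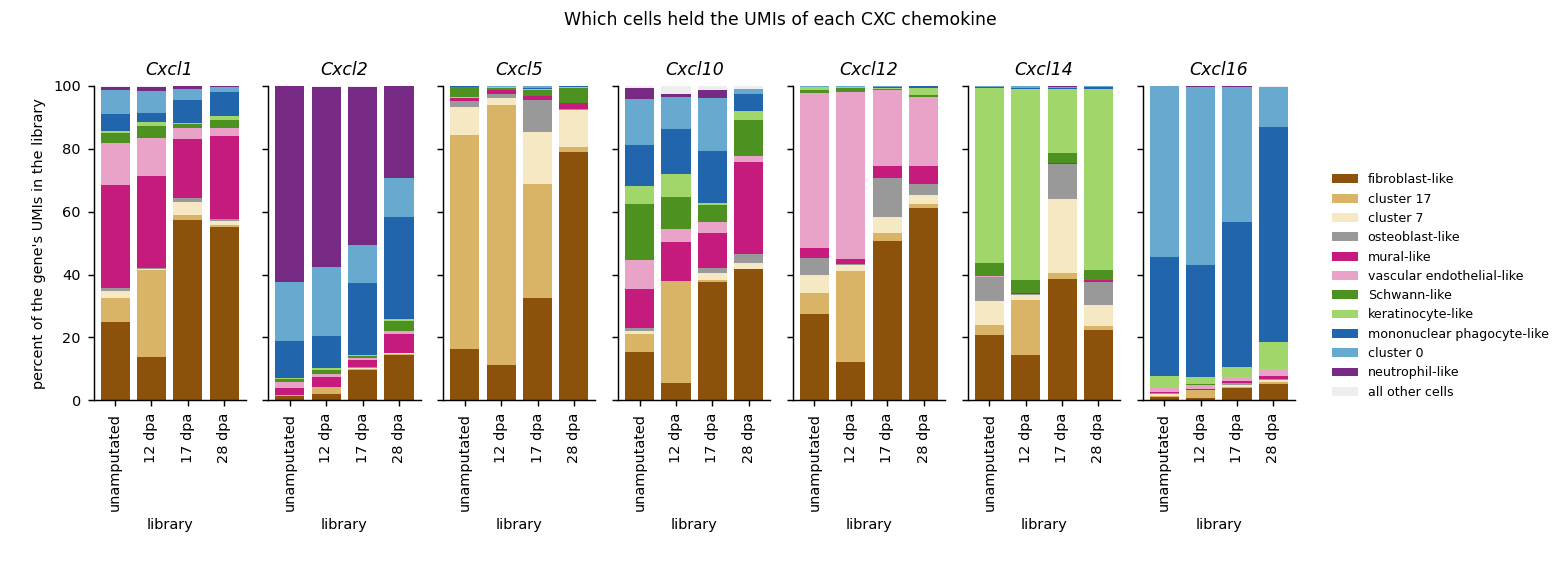
Percent of the UMIs of each gene in a library (vertical axis) held by each cell class or unnamed cluster (stacked colours), in the 4 libraries (bars). The fibroblast-like part of Cxcl1 and Cxcl12 is largest at 17 and 28 dpa, the neutrophil-like part of Cxcl2 is smallest at 28 dpa, and the cluster 17 part of Cxcl5 is down to 1.65% at 28 dpa.

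Cxcl2, which shares the receptor Cxcr2 with Cxcl1, was highest in neutrophil-like cells in every library. Its average over that class differed between the libraries with and without cells of cluster 10, and within cluster 11 it stayed under 2-fold. Neutrophil-like cells had 4609, 18566, 6288 and 18058 CPM. This class joined cluster 10 (Camp, Ngp, Ltf, granule genes of immature neutrophils), which had 424 and 149 cells in the unamputated and 17 dpa libraries and 0 at 12 and 28 dpa, with cluster 11 (Csf3r, Ccrl2, genes of mature neutrophils). Within cluster 11 Cxcl2 was at 13625 (13447 to 13804), 18566 (18199 to 18939), 14256 (13983 to 14532) and 18058 (17551 to 18575) CPM, from 622, 280, 305 and 182 cells. Log2 ratios there were 0.45, 0.07 and 0.41 at 12, 17 and 28 dpa, all under 2-fold. In cluster 10 it was at 287 and 707 CPM in the unamputated and 17 dpa libraries. After thinning, 43.9, 95.7, 52.5 and 80% of 895, 92, 303 and 10 neutrophil-like cells had a Cxcl2 UMI, the last share being 8 of 10 cells. The unamputated and 17 dpa shares join clusters 10 and 11. The shares were 0.558, 0.824, 0.896 and 0.865% of keratinocyte-like cells, which are taken to lack it. Median depths were 3089.5, 1762, 2446 and 1414 and 17388, 13867, 12517 and 9164 UMIs in the 2 classes. Too shallow and left out were 151, 188, 151 and 172 neutrophil-like and 42, 14, 12 and 57 keratinocyte-like cells.

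Outside neutrophil-like cells, Cxcl2 was next highest in cluster 0 in every library, followed by mononuclear phagocyte-like cells in the first 3 and by Schwann-like cells at 28 dpa. Mononuclear phagocyte-like cells had 361 (350.3 to 371), 350.1 (334 to 367), 468 (455 to 481) and 371 (361 to 381) CPM, under 2-fold apart over all 4 libraries. Cluster 0 had 497, 514, 514 and 1162 CPM, with a log2 ratio of 1.22 (1.15 to 1.30) at 28 dpa. In cluster 22 (Cd209a, H2-Aa, genes of dendritic cells) the level was 296, 286, 513 and 957 CPM, again highest at 28 dpa. In fibroblast-like cells Cxcl2 was at 35.7 (32.7 to 39), 53.6 (48.2 to 59.5), 95 (91 to 99.1) and 99.7 (95.8 to 104) CPM, with log2 ratios of 0.57 (0.38 to 0.77), 1.39 (1.25 to 1.53) and 1.46 (1.32 to 1.59). The 17 and 28 dpa values stood above the other 2, but both ratios were under 2-fold with no doublets removed (0.43 and 0.51). The summed level of 10 neutrophil markers in fibroblast-like cells was 50.9, 9.69, 59.7 and 13.6 CPM, with 1, 6, 0 and 4 of them at 0, and that of 19 mononuclear phagocyte markers was 94.9, 66.8, 119.6 and 167 CPM, with 0, 2, 0 and 0 at 0. Their part in the Cxcl2 values was not tested. Schwann-like cells had 86.9, 127, 196 and 598 CPM, with log2 ratios of 1.16 (0.89 to 1.43) at 17 dpa and 2.77 (2.56 to 2.98) at 28 dpa, and 0.07 and 2.73 under stricter cell filters. The 10 neutrophil markers summed to 111, 93.9, 120.3 and 108 CPM in these cells, with 3, 6, 3 and 5 at 0. The 19 mononuclear phagocyte markers summed to 68.1, 343, 136 and 612 CPM in them, with 4, 4, 2 and 4 at 0, highest at 28 dpa as was Cxcl2; the part of either list in these values was not tested. Mural-like cells had 48.4, 92.7, 68.2 and 134 CPM, with a log2 ratio of 1.46 (1.32 to 1.59) at 28 dpa. In them the mononuclear phagocyte markers summed to 62.1, 65.4, 158 and 211 CPM, with 0, 4, 0 and 1 at 0, and the neutrophil markers to 132, 29.1, 103 and 27.8 CPM, with 1, 4, 0 and 4 at 0; the former were highest at 28 dpa, and their part in the Cxcl1 and Cxcl2 values was not tested.

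Cxcl1 and Cxcl2 UMIs tended to stand in the same fibroblast-like cells. Among thinned cells with a Cxcl1 UMI, 11.8, 17, 22.9 and 15.9% also had a Cxcl2 UMI, against 1.22, 1.05, 3.06 and 3.06% of cells without one. The cells of each library share depth and dissociation, so this is a description of 4 libraries.

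**Figure D3:**
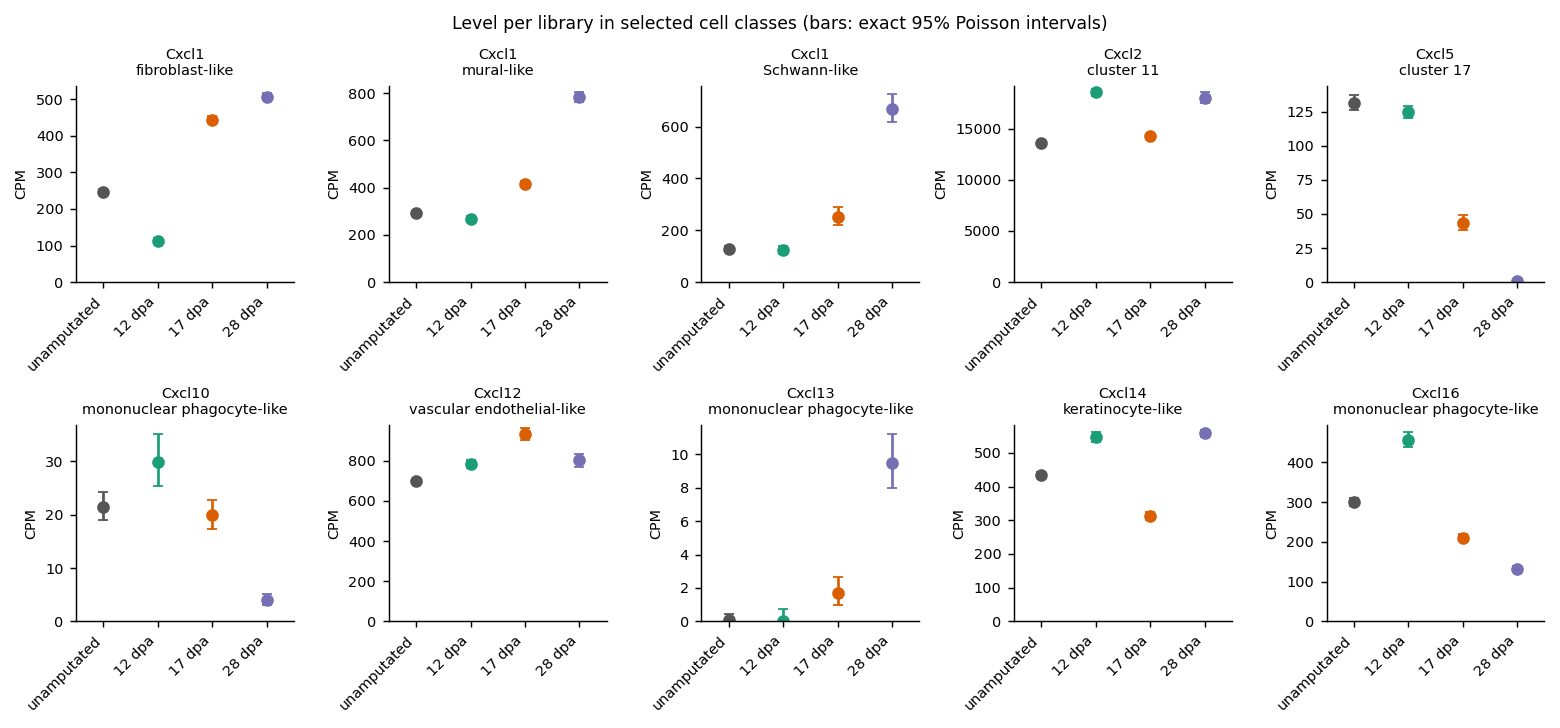
CPM (vertical axis) of 8 of the genes in cells of the named class or cluster in each library (horizontal axis); bars are exact 95% Poisson intervals, which cover counting error only. Cxcl1 is highest at 28 dpa in the 3 classes shown, Cxcl5 in cluster 17 goes down from the unamputated and 12 dpa libraries to 28 dpa, and Cxcl16 in mononuclear phagocyte-like cells is highest at 12 dpa and lowest at 28 dpa.

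Cxcl5, the third neutrophil attractant, was lower at 17 and 28 dpa than in the unamputated digit. In the unamputated, 12 and 17 dpa libraries it was highest in cluster 17, where the 4 libraries had 132 (126 to 137), 125 (121 to 129), 43.3 (37.8 to 49.3) and 0.995 (0.271 to 2.55) CPM, from 2195, 3518, 229 and 4 UMIs. The unamputated and 12 dpa levels had overlapping intervals, with a log2 ratio of -0.08 (-0.15 to -0.00), and the level was lower at 17 dpa and lowest at 28 dpa, with log2 ratios of -1.58 (-1.78 to -1.39) and -6.05 (-6.70 to -5.22). At 28 dpa only 4 UMIs in 3 of 370 cells remained. Cells with a UMI made up 24.6, 28.7, 12.9 and 0.811% of cluster 17, or 7.73, 11.5, 3.7 and 0.541% after thinning, against 0, 0.73, 0 and 0% of thinned T or NK lymphocyte-like cells, at median depths of 25271, 15642, 16282 and 9918 and 4614, 2995, 3643 and 2465 UMIs. The counts of 0 in the unamputated, 17 and 28 dpa libraries allow shares of up to 1.13, 3.03 and 5.26%.

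Cluster 17 itself was not the same mixture at each time. At a finer resolution it split into a group led by Prss35 and Col7a1 with 194, 439 and 44 cells in the unamputated, 12 and 17 dpa libraries, one led by C1qtnf3 and Scx with 155, 418 and 107, one led by Matn4 and Mest with 263, 696, 78 and 41, and one led by Cilp2, Hapln1 and Prg4 that held 65, 53 and 263 cells at 12, 17 and 28 dpa. The last group, with genes of joint lining and cartilage, thus made up most of cluster 17 at 28 dpa. Cxcl5 in the Prss35 group was at 299.9, 180.3 and 74.9 CPM in the unamputated, 12 and 17 dpa libraries, and in the C1qtnf3 group at 25.5, 146 and 61.8 CPM. In the Matn4 group it was at 124, 87.5, 25.6 and 8.18 CPM, the last from 41 cells and 3 UMIs, and in the Cilp2 group at 18.8, 0 and 0.334 CPM at 12, 17 and 28 dpa, from 19, 0 and 1 UMIs. The lower level at 17 than at 12 dpa was seen in all 4 groups, whereas the 28 dpa level rests mainly on a group that had little Cxcl5 at any time.

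Other connective tissue clusters also held less Cxcl5 at 17 and 28 dpa. Fibroblast-like cells had Cxcl5 at 36.6 (33.5 to 39.8), 72.1 (65.8 to 78.8), 9.19 (7.97 to 10.5) and 7.92 (6.84 to 9.12) CPM, with log2 ratios of 0.96 (0.78 to 1.14), -1.88 (-2.10 to -1.67) and -2.07 (-2.29 to -1.86); the 17 and 28 dpa values lay below both other libraries. Cluster 7 had 57.2, 103, 21.6 and 20.9 CPM and cluster 16 11.8, 49.5, 6.14 and 1.56 CPM, each with its highest level at 12 dpa. Over all cells Cxcl5 was at 22.7, 57.1, 8.09 and 3.09 CPM, and cluster 17 held 68.2, 82.6, 36.3 and 1.65% of its UMIs. In neutrophil-like and mononuclear phagocyte-like cells Cxcl5 did not exceed 5 CPM in any library.

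**Figure D4:**
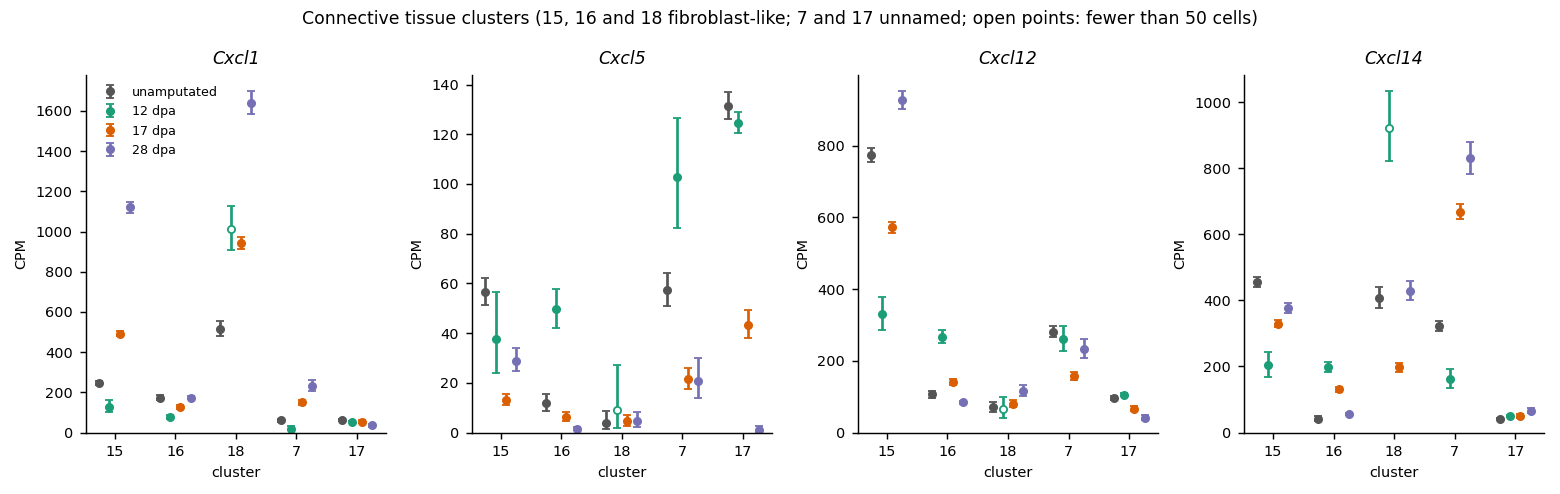
CPM (vertical axes) of Cxcl1, Cxcl5, Cxcl12 and Cxcl14 in 5 connective tissue clusters (horizontal axes) by library (colours), with exact 95% Poisson intervals and open points for fewer than 50 cells. Cxcl1 at 28 dpa is highest in clusters 15 and 18, Cxcl5 is highest in cluster 17 in the unamputated and 12 dpa libraries, Cxcl12 is highest in cluster 15, and Cxcl14 in cluster 7 is highest at 17 and 28 dpa.

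Cxcl9 and Cxcl10, the interferon-induced ligands, were low. Cxcl9 had 165, 63, 214 and 30 UMIs in 36, 24, 33 and 13 cells of the 4 libraries, and single cells carried up to 37, 1, 62 and 1 of them among mononuclear phagocyte-like cells. Its level in these cells was 5.85, 0.204, 8.08 and 0.0686 CPM, resting on few cells in each library. Cxcl10 had 21.5 (19 to 24.2), 30 (25.3 to 35.2), 19.9 (17.3 to 22.7) and 3.98 (3.02 to 5.14) CPM in mononuclear phagocyte-like cells. The intervals of the unamputated and 17 dpa libraries overlapped, the 12 dpa value was above both, and the 28 dpa value was below the other 3, with a log2 ratio of -2.17 (-2.51 to -1.83). In cluster 22 within that class it was at 30.2, 70.3, 44.5 and 25.5 CPM. In cluster 25 (Folr2, Lyve1, F13a1, genes of resident macrophages) it was at 0, 0, 10.4 and 2.25 CPM. The counts of 0 allow up to 2.27 and 4.38 CPM in the unamputated and 12 dpa libraries. The class ratio joins clusters that differ: at 28 dpa it was 0.36 in cluster 1 (Apoe, Ms4a7, C1q genes) and -0.24 in cluster 22. Cluster 25 made up 11.6% of the class in the unamputated library and held most of it at 17 and 28 dpa, with 88.4% at 28 dpa. How far this change of make-up carries the class ratio was not tested.

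The highest Cxcl10 level of any class in each library was in Schwann-like cells, at 103 (92.4 to 114), 59.9 (49.1 to 72.5), 74.6 (57.8 to 94.8) and 139.6 (116 to 167) CPM; no ratio there passed 2-fold. Mural-like cells had 16.2, 21.7, 18.5 and 41.6 CPM, with a log2 ratio of 1.31 (1.07 to 1.55) at 28 dpa. That ratio was 0.67 in cluster 13, 0.19 in cluster 14 and 3.06 in cluster 19, so that 1 of the 3 mural-like clusters was past 2-fold; it made up 18.8% of the class in the unamputated library and 29.8% at 28 dpa. Fibroblast-like cells had 22, 8.64, 21.8 and 18.4 CPM; the 12 dpa ratio of -1.25 (-1.63 to -0.88) was 0.11 under looser cell filters and -0.28 with no doublets removed, so it held neither in size nor, with looser filters, in direction. T or NK lymphocyte-like cells had 11.7, 50, 37.9 and 47.4 CPM, from 17, 27, 18 and 10 UMIs. The 19 mononuclear phagocyte markers summed to 1243, 1241, 674 and 1403 CPM in those cells, with 2, 3, 4 and 3 at 0, and the 12 fibroblast markers to 446, 1817, 2002 and 1251 CPM, with 0, 2, 0 and 1 at 0. The fibroblast sum, like Cxcl10, was lowest in the unamputated library; the part of either list in these few UMIs was not tested. In the follicle-like cluster 4 (Krt15, Krt17, Lgr5) of keratinocyte-like cells Cxcl10 was at 11.9, 40, 2.51 and 5.37 CPM, highest at 12 dpa.

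Cxcl12, the ligand of Cxcr4, stayed under 2-fold in endothelium at all times and was lower in fibroblast-like cells at 12 dpa. Vascular endothelial-like cells had 697 (685 to 709.9), 783 (763 to 804), 933 (903 to 964) and 803 (772 to 836) CPM, with log2 ratios of 0.17 (0.12 to 0.21), 0.42 (0.37 to 0.47) and 0.20 (0.14 to 0.27). None passed 2-fold in any setting tried. The level belonged to cluster 9 (Gpihbp1, Prnd, genes of capillaries and arteries), at 1096, 1088, 1498 and 1315 CPM, while cluster 8 (Selp, Sele, Vwf, genes of venules) had 117, 108, 153 and 147 CPM. Fibroblast-like cells had 473 (462 to 484), 184 (174 to 195), 333 (326 to 341) and 275 (269 to 282) CPM, and the 12 dpa ratio of -1.35 (-1.44 to -1.27) stayed past 2-fold in the direction of lower under each alternative run. The class ratio joins clusters that differ: at 12 dpa it was -1.23 (-1.44 to -1.02) in cluster 15 and 1.32 (1.15 to 1.49) in cluster 16. Cluster 28, a cycling cluster that made up 22.9% of the class at 12 dpa and 2.56% in the unamputated library, had Cxcl12 at 57.8 CPM at 12 dpa. How far this change of make-up carries the class ratio was not tested. The class ratios at 17 and 28 dpa were -0.50 and -0.78.

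Cluster 15 had Cxcl12 at 773, 329, 572 and 926 CPM and cluster 16 at 106, 267, 141 and 84.5 CPM, so cluster 16 was higher at 12 dpa than in the other 3 libraries while cluster 15 was lower. Cluster 15 had 71 cells at 12 dpa, against 444, 906 and 754 in the unamputated, 17 and 28 dpa libraries. Cluster 7 had 281, 260.1, 156 and 232 CPM, and osteoblast-like cells 232, 353 and 136 CPM in the unamputated, 17 and 28 dpa libraries, with 14 cells at 12 dpa. Cluster 17 had 95.8, 105, 66.5 and 41 CPM, a log2 ratio of -1.20 (-1.44 to -0.98) at 28 dpa, where its make-up had changed as described for Cxcl5. Cxcl12 in its Matn4 group was at 118 and 95.5 CPM in the unamputated and 28 dpa libraries, under 2-fold apart, and in the Cilp2 group, for which there is no unamputated level, at 34.1 CPM at 28 dpa. After thinning, 36, 40.8, 40.8 and 35.9% of vascular endothelial-like cells had a Cxcl12 UMI, against 0.377, 0.73, 2.02 and 0% of T or NK lymphocyte-like cells, at median depths of 10834, 7226, 6294 and 4312 and 4614, 2995, 3643 and 2465 UMIs; the last 0 allows up to 5.26%. Of all Cxcl12 UMIs, vascular endothelial-like cells held 49.5, 53.2, 24.2 and 22.1% and fibroblast-like cells 27.6, 12.1, 50.8 and 61.1%, the latter the larger part at 17 and 28 dpa.

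Cxcl13, the B cell attractant, had few UMIs before 28 dpa. It had 1, 2, 18 and 140 UMIs in 1, 2, 5 and 17 cells. At 28 dpa, 138 of these UMIs were in 15 mononuclear phagocyte-like cells, at 9.47 (7.96 to 11.2) CPM, and 1 cell alone held 77 of them. At 17 dpa the class had 1.67 (0.991 to 2.64) CPM, from 18 UMIs in 5 cells. Most of the 28 dpa UMIs, 126 in 14 cells, were in cluster 25, which numbered 133, 100, 624 and 1713 cells. B lineage-like cells, which carry the receptor Cxcr5, numbered 201, 145 and 100 in the unamputated, 17 and 28 dpa libraries and 0 at 12 dpa, and Cxcr5 in them was at 84.3, 186 and 196 CPM.

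Cxcl14, known as an epithelial chemokine, was highest in keratinocyte-like cells in the unamputated and 12 dpa libraries, and in cluster 7, followed by Schwann-like cells, at 17 and 28 dpa. Within the Schwann-like class, however, the larger cluster 26 lay below keratinocyte-like cells at both times. The rest of that class, cluster 27, had only 18 and 15 cells then. Keratinocyte-like cells had 434 (426 to 442), 548 (533 to 563), 312 (301 to 324) and 558 (547 to 569) CPM, with log2 ratios of 0.33 (0.29 to 0.38), -0.47 (-0.53 to -0.41) and 0.36 (0.32 to 0.40), all under 2-fold. Within them cluster 4 had 1383, 1572, 999 and 1587 CPM, the basal cluster 5 (Krt14, Krt5) 258, 496, 258 and 275 CPM and the suprabasal cluster 3 (Krt10, Krt1) 19.7, 70.4, 28 and 52.6 CPM. This order of the 3 clusters was the same in every library. After thinning, 28.1, 33.3, 25.5 and 35.6% of keratinocyte-like cells had a Cxcl14 UMI against 0.377, 2.92, 3.03 and 3.51% of T or NK lymphocyte-like cells, at median depths of 17388, 13867, 12517 and 9164 and 4614, 2995, 3643 and 2465 UMIs; at 17 dpa, 26 of the 29 UMIs of the latter were in 1 cell.

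In connective tissue Cxcl14 was past 2-fold higher in cluster 7 at 17 and 28 dpa and, within the fibroblast-like class, in cluster 16 at 12 and 17 dpa. Cluster 7 had 322 (307 to 339), 162 (136 to 191), 668 (645 to 692) and 830.0 (782 to 880.2) CPM, with log2 ratios of -0.99 (-1.25 to -0.74), 1.05 (0.96 to 1.14) and 1.36 (1.25 to 1.47), and its 17 and 28 dpa levels stood above the first 2 libraries. Fibroblast-like cells had 311, 176, 236 and 159 CPM and ratios of -0.82, -0.40 and -0.96, none past 2-fold; the last was 0.02 with stricter cell filters. In cluster 15 it was at 456, 203, 329 and 377 and in cluster 16 at 42.2, 198, 131 and 56.5 CPM, with log2 ratios in cluster 16 of 2.20 (1.96 to 2.45), 1.61 (1.37 to 1.85) and 0.41 (0.18 to 0.65). Osteoblast-like cells had 285, 294 and 491 CPM in the unamputated, 17 and 28 dpa libraries. Schwann-like cells had 266 (249.7 to 284), 190.0 (170.2 to 211), 515 (469 to 564) and 675 (621 to 732) CPM, with a log2 ratio of 1.34 (1.19 to 1.49) at 28 dpa. Cluster 26 (Cadm2, Cdh19), which held most of them, had 175, 180.3, 238 and 423 CPM. The rest of the class, cluster 27, numbered 12, 3, 18 and 15 cells. The 19 keratinocyte markers found in the matrices summed to 156, 339.9, 223 and 469.9 CPM in Schwann-like cells, with 4, 5, 5 and 2 at 0, to 149, 225, 161 and 482 CPM in cluster 7 and to 195, 299, 205 and 378 CPM in cluster 0, each highest at 28 dpa, and their part in the Cxcl14 levels of these cells was not tested. The part of the fibroblast markers in Schwann-like cells, whose sums are given with Cxcl1, was not tested either.

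Cxcl16, the membrane-bound ligand of Cxcr6, was a transcript of phagocytes, highest at 12 dpa and lowest at 28 dpa. Mononuclear phagocyte-like cells had 299.5 (290.0 to 309), 457 (438 to 476), 209.9 (201 to 219) and 132 (126 to 138) CPM, 4 values whose intervals did not overlap. Log2 ratios were 0.61 (0.53 to 0.68), -0.51 (-0.59 to -0.44) and -1.17 (-1.25 to -1.09), and the last was past 2-fold under each alternative run. Cluster 0 had 381, 490.1, 403 and 203 CPM. Within the class, cluster 1 (Apoe, Ms4a7, C1q genes) had 375, 528, 375 and 361 CPM and cluster 25 218, 371, 157 and 119 CPM, with log2 ratios at 28 dpa of -0.06 (-0.27 to 0.16) and -0.87 (-1.05 to -0.69). Cluster 25 made up most of the class at 17 and 28 dpa and had less Cxcl16 than cluster 1 in each library. After thinning, 36.7, 54.2, 29.9 and 21.2% of mononuclear phagocyte-like cells had a UMI against 0, 0.433, 0 and 0% of Schwann-like cells, at median depths of 10226, 7895, 8674 and 7089 and 12007, 6327, 6776 and 4246 UMIs; the counts of 0 allow up to 1.13, 2.63 and 1.92%. The richest 5% of these cells held 23.5, 18.1, 25.1 and 27.8% of the Cxcl16 UMIs, so most of the transcript lay outside the richest cells.

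**Figure D5:**
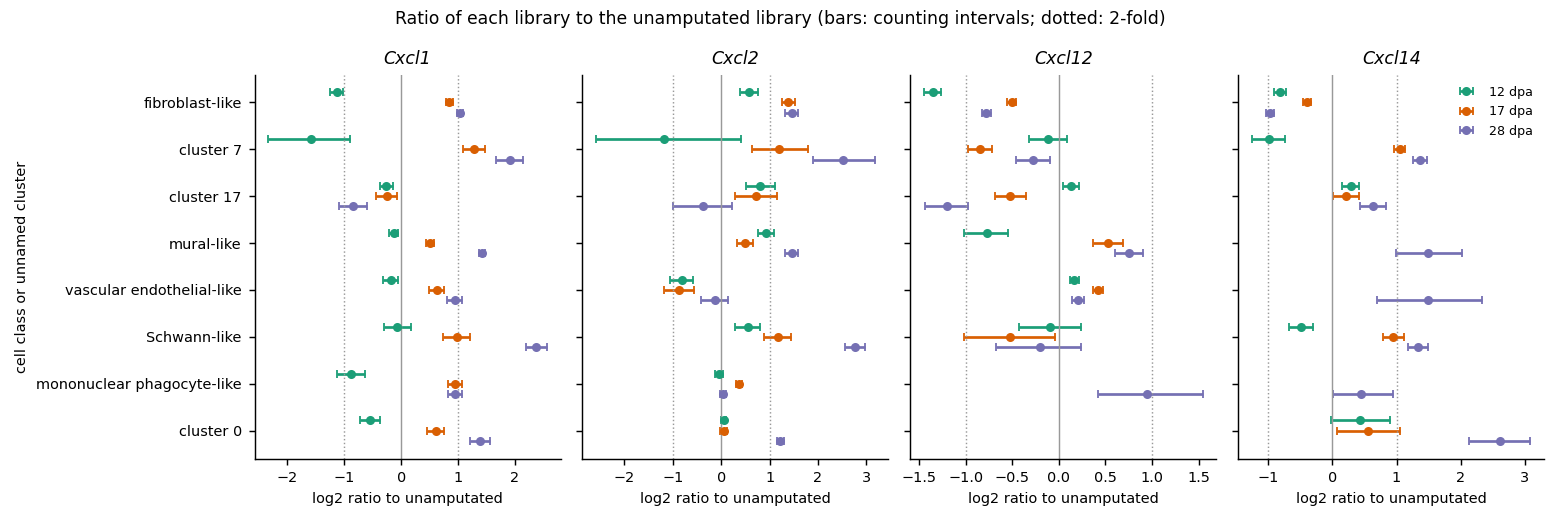
Log2 ratio of CPM + 1 to the unamputated library (horizontal axes) for Cxcl1, Cxcl2, Cxcl12 and Cxcl14 by cell class or cluster (vertical axis) at 12, 17 and 28 dpa (colours), with 95% counting intervals and dotted lines at 2-fold; genes under 5 CPM in both libraries are left out. Cxcl1 and Cxcl2 lie at or right of 0 at 28 dpa in every row but cluster 17 and, for Cxcl2, vascular endothelial-like cells, while Cxcl12 in vascular endothelial-like cells stays within the dotted lines.

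Over the 9 genes as a set, the number past 2-fold depended on the class. In fibroblast-like cells 7 of the 9 reached 5 CPM in each comparison. At 12 dpa 0 were higher and 3 lower (Cxcl1, Cxcl10 and Cxcl12), where 5.19% of all genes tested were 2-fold or more higher and 10.4% lower, and the median log2 ratio was -0.82 beside -0.22 over all genes. At 17 dpa 1 was higher (Cxcl2) and 1 lower (Cxcl5), against 0.676% and 1.71% of all genes, with medians of -0.01 and -0.04. At 28 dpa 2 were higher (Cxcl1 and Cxcl2) and 1 lower (Cxcl5), against 2.14% and 6.61%, with medians of -0.25 and -0.14. The genes were chosen with such values known, so nothing is read from the counts, here or in the other classes.

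In mononuclear phagocyte-like cells 5, 5 and 8 of the 9 reached 5 CPM at 12, 17 and 28 dpa. At 12 dpa 0 were higher and 1 lower (Cxcl9), against 1.27% and 4.09% of all genes. At 17 dpa 0 were past 2-fold, against 2.62% higher and 3.81% lower. At 28 dpa 1 was higher (Cxcl13) and 3 lower (Cxcl9, Cxcl10 and Cxcl16), against 4.15% and 9.47%. The median log2 ratios were -0.04, 0.37 and 0.25, beside -0.22, -0.00 and -0.10 over all genes. In cluster 0, 0 of 5 and 1 of 6 (Cxcl9) were higher at 12 and 17 dpa and 3 of 5 (Cxcl1, Cxcl2 and Cxcl14) at 28 dpa, with 0 lower. All genes there had 0.895%, 0.777% and 3.55% higher and 1.21%, 1.1% and 6.44% lower. The 12 fibroblast markers summed to 246, 714, 470 and 738 CPM in cluster 0. Their part in its Cxcl1 and Cxcl14 values was not tested.

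In mural-like cells 1 of 5 (Cxcl5), 0 of 4 and 4 of 5 were higher and 0 lower at 12, 17 and 28 dpa, against 1.77%, 0.726% and 2.06% of all genes higher and 2.08%, 0.634% and 3.18% lower. The 4 at 28 dpa were Cxcl1, Cxcl2, Cxcl10 and Cxcl14, the last at 9.7 CPM. The 19 keratinocyte markers summed to 171, 297, 233 and 549 CPM in mural-like cells, with 3, 4, 2 and 0 at 0, highest at 28 dpa as was Cxcl14, and their part in it was not tested. Schwann-like cells had 1 of 7 higher and 0 lower at 12 dpa (Cxcl16), 1 of 6 higher and 1 lower at 17 dpa (Cxcl2 and Cxcl5), and 3 of 6 higher (Cxcl1, Cxcl2 and Cxcl14) and 1 lower (Cxcl5) at 28 dpa. Of all genes in these cells, 3.07%, 5.03% and 5.44% were higher and 2.19%, 5.79% and 7.04% lower. In keratinocyte-like cells 1 of 6 and 1 of 5 were higher at 12 and 17 dpa (Cxcl2) and 2 of 5 at 28 dpa (Cxcl1 and Cxcl2), with 0 lower, against 0.836%, 0.921% and 1.3% of all genes higher and 1.65%, 1.17% and 2.47% lower. The keratinocyte-like counts rest on levels of at most 15.4 CPM, and these cells are taken to lack Cxcl2. In them the 19 mononuclear phagocyte markers summed to 56.8, 61.2, 123 and 129 CPM, with 0, 3, 0 and 0 at 0. Their part in the Cxcl2 values was not tested. Median log2 ratios of the genes tested were 0.40, 0.50 and 1.42 in mural-like cells (all genes -0.12, -0.04 and -0.14), -0.10, 0.25 and 0.89 in Schwann-like cells (all genes -0.07, -0.04 and -0.08) and 0.46, 0.32 and 0.84 in keratinocyte-like cells (all genes -0.15, -0.15 and -0.18).

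In cluster 17, 0 of 7, 0 of 6 and 0 of 6 were higher and 0, 2 and 3 lower (Cxcl5 and Cxcl10 at 17 dpa, these and Cxcl12 at 28 dpa, when the Cilp2 group made up most of the cluster). All genes there had 0.29%, 1.62% and 4.85% higher and 0.628%, 1.94% and 8.59% lower. In cluster 7, 0 of 6 were higher and 2 lower at 12 dpa (Cxcl1 and Cxcl2), 3 of 7 higher (Cxcl1, Cxcl2 and Cxcl14) and 1 lower (Cxcl5) at 17 dpa, and 4 of 7 higher (these with Cxcl10) and 1 lower (Cxcl5) at 28 dpa. The shares of all genes in cluster 7 were 2.55%, 1.59% and 5.01% higher and 7.67%, 2.16% and 5.77% lower. The 19 mononuclear phagocyte markers summed to 48.4, 31.5, 99.2 and 149 CPM in cluster 7, with 4, 8, 2 and 4 at 0. Their part in its Cxcl2 values was not tested. At 28 dpa Cxcl1 and Cxcl2 were thus past 2-fold upward in fibroblast-like, mural-like, Schwann-like and keratinocyte-like cells and in clusters 0 and 7, and also in neutrophil-like cells, whose cluster make-up differed, and, from 5 and 15 UMIs at 28 dpa, in B lineage-like cells. In keratinocyte-like cells the Cxcl1 level at 28 dpa, 15.4 CPM, lay under the 33.2 CPM of T or NK lymphocyte-like cells, which are taken to lack it, and is not read as expression. Keratinocyte-like cells are themselves taken to lack Cxcl2, so its ratio there is not read as expression either. In fibroblast-like cells both ratios were under 2-fold with no doublets removed. Cxcl1 and Cxcl2 were not both past 2-fold in cluster 17 or, as whole classes, in mononuclear phagocyte-like, vascular endothelial-like, osteoblast-like or T or NK lymphocyte-like cells. The mononuclear phagocyte-like class joined clusters that differed, and cluster 25 made up 11.6% of it in the unamputated library and 88.4% at 28 dpa. Cxcl1 was at 22, 9.55, 70.4 and 211 CPM in cluster 22 and 41.7, 32.1, 133 and 115 CPM in cluster 25, with log2 ratios at 28 dpa of 3.21 and 1.44. The Cxcl2 ratios at 28 dpa were 1.69 and -0.07, so both genes were past 2-fold in cluster 22.

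The receptors were found on the cells these ligands are known to act on. Cxcr2, the receptor of Cxcl1, Cxcl2 and Cxcl5, was at 174, 413, 196 and 405 CPM in neutrophil-like cells. Cxcr4 was at 323, 518, 256 and 706 CPM there, at 274, 213, 169.7 and 168 CPM in mononuclear phagocyte-like cells and at 45.6, 36.4, 45.1 and 55.6 CPM in vascular endothelial-like cells. The neutrophil-like class held cells of cluster 10 only in the unamputated and 17 dpa libraries. The part of this in its Cxcr2 and Cxcr4 values was not tested. Cxcr6, the receptor of Cxcl16, was at 324, 483, 267 and 185 CPM in T or NK lymphocyte-like cells, in which Cxcr3 was at 10.3, 5.55, 31.6 and 23.7 CPM. The scavenger Ackr3, which binds Cxcl12, was at 322, 237, 358 and 592 CPM in fibroblast-like cells, and Ackr1, a chemokine-binding protein of venules, at 99.1, 80.8, 97.8 and 141 CPM in vascular endothelial-like cells. Of 8 receptor genes, 1 to 2 reached 5 CPM in fibroblast-like cells, and 1 was past 2-fold there (Cxcr6, higher at 12 dpa, from 0.279 to 6.11 CPM).

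Among 5 other CXC ligands, Pf4, which is made by platelets and by macrophages, was at 989, 1230.3, 2568 and 3593 CPM in mononuclear phagocyte-like cells, past 2-fold at 17 and 28 dpa. Cluster 25 made up 11.6, 17.9, 55.7 and 88.4% of that class, and the part of this make-up in the Pf4 values was not tested. Pf4 also had higher values at 28 dpa in classes not known to make it, with 8.96, 0, 21 and 417 CPM in T or NK lymphocyte-like cells and 4.89, 3.86, 11.9 and 32.2 CPM in mural-like cells. Cxcl3, a close relative of Cxcl1 and Cxcl2, was at 29.4, 224, 46.8 and 52.5 CPM in neutrophil-like cells and 101, 94.3, 135 and 111 CPM in cluster 0. The neutrophil-like class held cells of cluster 10 only in the unamputated and 17 dpa libraries, and the part of this was not tested. The coding sequences of Cxcl1, Cxcl2 and Cxcl3 are related, and how reads shared between them were counted was not tested. Of 6 genes that trim or shed chemokines, 4 reached 5 CPM in fibroblast-like cells and 0 were past 2-fold at any time; Mmp2, a matrix protease that cuts Cxcl12, was at 1274, 838, 1413 and 929 CPM. Adam17, a sheddase, was at 186, 117, 145 and 119.7 CPM in mononuclear phagocyte-like cells.

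The NF-kappaB early response list, with 16 genes, was counted beside Cxcl1 and Cxcl2 in fibroblast-like cells. Of 13 that reached 5 CPM there, 0 were higher and 6 lower at 12 dpa, 3 higher and 0 lower at 17 dpa, and 3 higher and 0 lower at 28 dpa, with median log2 ratios of -0.63, 0.44 and 0.35 beside -0.22, -0.04 and -0.14 over all genes. Of all genes in these cells 5.19%, 0.676% and 2.14% were higher and 10.4%, 1.71% and 6.61% lower, the background for this and the other lists in fibroblast-like cells. Nfkbia, the inhibitor induced by the pathway, was at 244, 109.7, 332 and 343 CPM, Zfp36, an RNA-decay factor, at 141, 60.6, 385 and 293 CPM, and Ccl2, which draws monocytes, at 77.8, 132, 143 and 221 CPM. The 12 genes of the dissociation response, which tissue digestion itself induces, had 0 higher and 8 lower at 12 dpa and 0 past 2-fold at 17 and 28 dpa, with median log2 ratios of -1.18, 0.36 and 0.01 beside the same all-gene medians, and their summed level in fibroblast-like cells was 5094, 2682, 6656 and 5276 CPM. In mural-like cells that sum was 5419.9, 3488, 6793 and 8972 CPM, highest at 28 dpa, as was Cxcl1. In Schwann-like cells it was 4081, 3087, 6745 and 5861 CPM, with its highest value at 17 dpa. In cluster 7 the dissociation list had 0 higher and 7 lower at 12 dpa, 0 past 2-fold at 17 dpa and 4 higher and 0 lower at 28 dpa, with medians of -1.12, -0.01 and 0.91 and sums of 4193, 1812, 4124 and 6748 CPM, lower at 12 and higher at 28 dpa as were Cxcl1 and Cxcl2. The part of digestion in the Cxcl1 and Cxcl2 values was not tested.

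The interferon response list of 12 genes had 8, 9 and 8 genes of 5 CPM or more in mononuclear phagocyte-like cells, with 1 higher and 2 lower, 1 higher and 2 lower, and 0 higher and 5 lower at 12, 17 and 28 dpa. Its median log2 ratios were -0.33, 0.23 and -1.29, beside -0.22, -0.00 and -0.10 over all genes. In mononuclear phagocyte-like cells Cd274, the ligand PD-L1, was at 30.5, 23.6, 16.4 and 7.75 CPM, lowest at 28 dpa as was Cxcl10. The NF-kappaB early response list had 1 higher and 4 lower of 14 at 28 dpa in mononuclear phagocyte-like cells, with Il1b, the cytokine interleukin 1 beta, at 407, 341, 219 and 90.3 CPM. All genes in these cells had 1.27%, 2.62% and 4.15% higher and 4.09%, 3.81% and 9.47% lower. Cluster 25 made up 11.6% of mononuclear phagocyte-like cells in the unamputated library and 88.4% at 28 dpa. The part of this change of make-up in the list, Cd274 and Il1b values was not tested. In fibroblast-like cells 5 genes of the interferon response list reached 5 CPM, with 0 higher at any time and 2, 2 and 1 lower.

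Patterns most like each member were sought over 52 sums, 1 for each class or unnamed cluster in each library with at least 50 cells, among 16353 genes, by the Pearson correlation of log2(CPM + 1). These sums share libraries and depth, so the values describe likeness only. For Cxcl1 the leading genes were Fos (0.797), Socs3 (0.788) and Cebpd (0.753); for Cxcl2 they were Por (0.921), Rab20 (0.906) and Ccrl2 (0.897). For Cxcl5 they were Crabp1 (0.879), Postn (0.874) and Frem1 (0.867), and for Cxcl10 Phlda1 (0.773), Nfil3 (0.709) and Tdrkh (0.707). For Cxcl12 they were Ppic (0.889), Tmem47 (0.887) and Peg10 (0.868), for Cxcl14 Efs (0.869), Sfrp1 (0.863) and Pak3 (0.861), and for Cxcl16 Ms4a6d (0.896), Fcgr1 (0.892) and Cd207 (0.891). The lowest leading value was that of Cxcl9, with H2-M2 (0.605), Gm46411 (0.589) and Lsr (0.578); that of Cxcl13, with 4931408C20Rik (0.94), Vsig4 (0.821) and Cd209g (0.785), rests on the few sums with any UMI of it.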

How the data were processed

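UMI counts of 32285 genes in cell barcodes were deposited by the authors as 1 sparse matrix per library, with Cell Ranger 7.1.0 and the build mm10 named in the submitters' processing notes; the counting settings are not given in the sources used here. The matrices hold raw whole-number counts per the file headers. Barcodes under 500 genes or 1000 UMIs, or with over 10% of UMIs from mitochondrial genes, were dropped, and the barcodes with the highest doublet scores (Scrublet in scanpy 1.11.5) were removed at a rate of 0.8% per 1000 barcodes, which took 12.8%, 7.05%, 8.41% and 12.2% of barcodes; the caller's own cut marked 2.03% to 4.24%. Cells of all libraries were clustered together without batch correction (2000 variable genes, 30 components, 15 neighbours, Leiden resolution 1), and clusters were named from fixed markers. A cluster stayed unnamed where markers of a different class outnumbered its own among the 10 leading genes. It also stayed unnamed where under 3 markers were found in 25% of its cells. The same held where it was shallow and had no marker of its class among its leading genes. UMIs were summed per class and library and given as CPM with exact 95% Poisson intervals (scipy 1.17.1); ratios used a pseudocount of 1 CPM and exact binomial counting intervals. With 1 library a group no test was possible, and nothing in the labels says how many animals each library pooled. A simulation with known fold changes was used to check the ratio step. Shares of cells were compared after thinning to 2000 UMIs, leaving out shallower cells. Other tools were numpy 2.4.6, pandas 2.3.3, igraph 0.11.9 and matplotlib 3.10.9.

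The members, gene lists, markers and motifs were chosen with earlier results of these data known. The genes named are the 9 members, genes of the fixed lists, the 3 genes most like each member and leading genes of clusters. Motifs were searched on both strands of RefSeq windows (GRCm38.p6); gene positions are from GENCODE M21 (GRCm38). Alternatives covered cell filters, doublets, resolution, naming, pseudocount, weighting, scaling and the CPM minimum; naming by best class alone and stricter filters within the same clusters were added after seeing the data. Cxcl11 is not analysed here, and 1 gene of the interferon response list and 1 of the 4 motifs searched are not reported here.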

Additional observations from a re-analysis of the deposited data

Results flagged for a closer look

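Where both libraries held 10 UMIs or more and the larger level reached 20 CPM, 3 cases had a member past 2-fold in opposite directions in different cell classes of the same library. For each, the class with the largest ratio on either side is given, and the difference was not tested. Opposite directions resting on fewer UMIs or lower levels, as for Cxcl2 at 12 dpa and Cxcl16 at 28 dpa, are not listed. Cxcl1 at 12 dpa had a log2 ratio of 2.24 in neutrophil-like cells and -1.58 in cluster 7. The neutrophil-like class held no cells of cluster 10 at 12 dpa; within cluster 11 Cxcl1 was at 71.3 CPM in the unamputated library and 139 CPM at 12 dpa. Cxcl10 at 12 dpa had a ratio of 2.0 in T or NK lymphocyte-like cells and -1.25 in fibroblast-like cells. Cxcl10 at 28 dpa had a ratio of 1.93 in T or NK lymphocyte-like cells, from 10 UMIs in the 28 dpa library, and -2.17 in mononuclear phagocyte-like cells. Over the settings tried the former ran from 0.96 to 2.25, so it was not past 2-fold in all of them. Within the mononuclear phagocyte-like class the 28 dpa ratio was 0.36 in cluster 1 and -0.24 in cluster 22. Cluster 25 made up 11.6% of that class in the unamputated library and 88.4% at 28 dpa. In T or NK lymphocyte-like cells the 19 mononuclear phagocyte markers summed to 1243, 1241, 674 and 1403 CPM, the 12 fibroblast markers to 446, 1817, 2002 and 1251 CPM and Pf4 was at 8.96, 0, 21 and 417 CPM in the unamputated, 12, 17 and 28 dpa libraries; the fibroblast sum was lowest in the unamputated library, as was Cxcl10, and the part of these was not tested.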

How the results depend on the processing

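No paired analysis was possible because each group is 1 library. Over all alternatives, 1582 of 2083 recomputed ratios stayed within their counting interval, 498 moved and 3 that had been past 2-fold changed direction: Cxcl10 in fibroblast-like cells at 12 dpa was 0.11 with looser filters, Cxcl2 in T or NK lymphocyte-like cells at 12 dpa was -0.67 with each cell named alone, and Cxcl14 in those cells at 28 dpa was -0.54 with no doublets removed. Of 777 ratios called past 2-fold, 714 stayed past it. Counts of members past 2-fold moved by over 1.5 times as follows, and the cause was not tested. In fibroblast-like cells the 12 dpa count of 3 was 1 with equally weighted cells, with each cell named alone and with looser filters, and the 17 dpa count of 2 and the 28 dpa count of 3 were each 1 with no doublets removed. In mononuclear phagocyte-like cells the 12 dpa count of 1 was 2 with equally weighted cells and 0 with a 20 CPM minimum, each cell named alone, naming by best class, looser filters, stricter filters or no doublets removed. The 17 dpa count of 0 was 1 with no minimum, naming by best class, looser filters or no doublets removed, and the 28 dpa count of 4 was 2 with a 20 CPM minimum. In keratinocyte-like cells the 12 dpa count of 1 was 2 with equally weighted cells, the median of all genes set to 0 or no minimum, 0 with a pseudocount of 5 CPM or a 20 CPM minimum, and 4 with stricter filters. The 17 dpa count of 1 was 0 with a pseudocount of 5 CPM or a 20 CPM minimum and 2 with no minimum, each cell named alone or stricter filters. The 28 dpa count of 2 was 1 with a pseudocount of 5 CPM or equally weighted cells and 0 with a 20 CPM minimum. Pooling fibroblast-like with tenocyte-like cells was not run, since no cluster was named tenocyte-like. The median of all genes tested shifted by -0.22 in fibroblast-like cells and -0.22 in mononuclear phagocyte-like cells at 12 dpa. The low UMI counts of Cxcl9 and Cxcl13 limit what can be read of them. T or NK lymphocyte-like and neutrophil-like cells had their lowest median depths at 28 dpa, which limits their values there.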
